A study of Mus musculus with 8 samples.

Results

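C/EBPα binding was examined at the loci of 4 lipogenic enzymes, Fasn, Acly, Scd1 and Scd2, in mouse liver. All C/EBPα peaks were taken from 3 windows of the mouse build mm9: chr11:120630000-120730000 around Fasn, chr11:100300000-100430000 around Acly, and chr19:44330000-44520000 around Scd2 and Scd1. Overlapping peaks (1 bp or more) from the 8 libraries were merged to form sites, which gave 55 sites in these windows of 113353 in all. The data come from chromatin immunoprecipitation and sequencing (ChIP-seq) with a single C/EBPα antibody. Each library has its own list of peaks with 1 signal value per peak. In the first experiment, Trib1 flox/flox mice received 1.5e11 gc (genome copies) of an adeno-associated virus (AAV), either the empty vector AAV_Null (group Trib1_WT) or AAV_Cre, which carries the Cre recombinase and makes the Trib1_LSKO group. In the second, wild-type C57B/6 mice received 1e12 gc of AAV_Null (group AAV_Null) or of AAV_Cebpa, a vector coding for C/EBPα (group AAV_Cebpa). All mice were 8 to 10 weeks old, were injected intraperitoneally, ate chow and were fasted for 4 hours before the liver was taken. Each group has 2 libraries, and the labels do not say whether these came from separate animals, so the spread between them may be technical. Which promoter drives Cre or C/EBPα in the vectors is not given in the sources used here. Whole liver mixes cell types. Deletion of Trib1, the amount of C/EBPα and expression of the 4 enzymes cannot be read from peak lists and were not checked.

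The members carry out successive steps of making fatty acids from sugar. ATP-citrate lyase, encoded by Acly, splits citrate in the cytosol to give acetyl-CoA, and fatty acid synthase, encoded by Fasn, builds palmitate from acetyl-CoA and malonyl-CoA. Stearoyl-CoA desaturases then put a double bond into saturated fatty acids. Scd1 is the main desaturase gene of mouse liver, and Scd2 is known mainly from brain and from the liver of young animals. C/EBPα, a bZIP protein abundant in hepatocytes and adipocytes, binds DNA as a dimer. Trib1 encodes Tribbles-1, a pseudokinase that brings C/EBPα to the ubiquitin ligase COP1 for degradation.

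Promoter sequences are shown for Fasn and Acly, the members for which they were available. They come from RefSeq on build GRCm38.p6, whose table matched 2 of the 4 members. Each runs from 250 bases before the start to 50 bases after it, 5′ to 3′ on the gene's strand. Capitals mark matches to the CCAAT box.
Fasn, chr11:120824498-120824797, minus strand: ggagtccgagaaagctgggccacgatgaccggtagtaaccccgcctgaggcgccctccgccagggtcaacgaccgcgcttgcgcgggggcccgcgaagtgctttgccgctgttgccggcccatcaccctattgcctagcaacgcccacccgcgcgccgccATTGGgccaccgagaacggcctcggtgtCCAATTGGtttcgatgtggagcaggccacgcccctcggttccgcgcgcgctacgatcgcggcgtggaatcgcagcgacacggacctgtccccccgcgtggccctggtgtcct
Acly, chr11:100527951-100528250, minus strand: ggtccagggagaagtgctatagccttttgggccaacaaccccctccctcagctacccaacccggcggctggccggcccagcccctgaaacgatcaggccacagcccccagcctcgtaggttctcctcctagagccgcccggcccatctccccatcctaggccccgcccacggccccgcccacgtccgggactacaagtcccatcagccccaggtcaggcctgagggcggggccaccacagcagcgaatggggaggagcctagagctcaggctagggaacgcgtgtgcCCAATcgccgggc
The C/EBP motif TTGCNNAA (on the other strand TTNNGCAA) had no match in either promoter. Of all 32851 promoters in the table, 10.8% held it. The CCAAT box (CCAAT, or ATTGG on the other strand) matched 3 times in Fasn, with first bases at -90, -62 and -59 when the start base is 0. The latter pair overlap each other. Acly had a single match, at 37, downstream of the start. Of all promoters, 37.4% held at least 1 CCAAT box. The E-box CACGTG, which reads the same on both strands, matched in neither and in 7.15% of all promoters. These matches describe letters in a window and do not show a bound site. The peaks are on mm9 and were not placed within these sequences.

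Signals are the authors' own values and compare only within a list. A peak's list percentile is therefore its position among all peaks of its own library, with 100 for the strongest. Lists held 46348 to 80394 peaks. Signal values within a list were whole multiples of a step, taken as the worth of 1 sequence tag. Its inverse gave relative depths of 1.00 (AAV_Null replicate 1) to 2.27 (AAV_Cebpa replicate 2). They were 1.85 in AAV_Cebpa replicate 1 and 1.17 in AAV_Null replicate 2. In the first experiment they were 1.14 and 1.93 in Trib1_WT and 1.18 and 1.28 in Trib1_LSKO. Distances are from the gene edge in mm9 nearest the start (about 120686000 for Fasn, 100390000 for Acly, 44368000 for Scd2 and 44482200 for Scd1). Those edges are rounded. The implied gene lengths differed from the RefSeq lengths by 209 bp for Fasn, 651 bp for Acly, 311 bp for Scd2 and 60 bp for Scd1, so a site within that distance of an edge cannot be placed on either side of the start. Exons and introns of mm9 were not used here. In the RefSeq gene table of GRCm38, Ccdc57 adjoins the Fasn start, Klhl11 adjoins the far end of Acly, and Scd4 lies between Scd2 and Scd1. A site is described by its nearest member and is not assigned to it.

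Each of the 3 windows held more C/EBPα sites per 100 kb than the chromosomes did: 15.0 at Fasn, 13.85 at Acly and 11.58 at the Scd genes. Scd1 and Scd2 share a window, so neither has a density of its own. Windows around other genes were not compared. The windows held 13.1 sites per 100 kb, against 4.29 over the chromosomes up to their last peak. Sites called in all 8 libraries numbered 19 (34.5% of the 55, against 21.5% of all sites), or 4.52 per 100 kb against 0.921. The Fasn window had 15 sites, the Acly window 18 and the Scd window 22, with 6, 5 and 8 of these in all 8 libraries. By position, 18 sites lay inside the gene span of a member, 22 upstream and 15 downstream. The 19 common sites had mean list percentiles of 59.7 to 99.2 (median 77.8, against 71.5 for all sites in 8 libraries). A further 12 sites were called in a single library, at percentiles of 1.39 to 47.9, and 6 of these were in the AAV_Cebpa libraries, whose lists are the longest. The remaining 24 sites were called in 2 to 7 libraries.

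**Figure D1:**
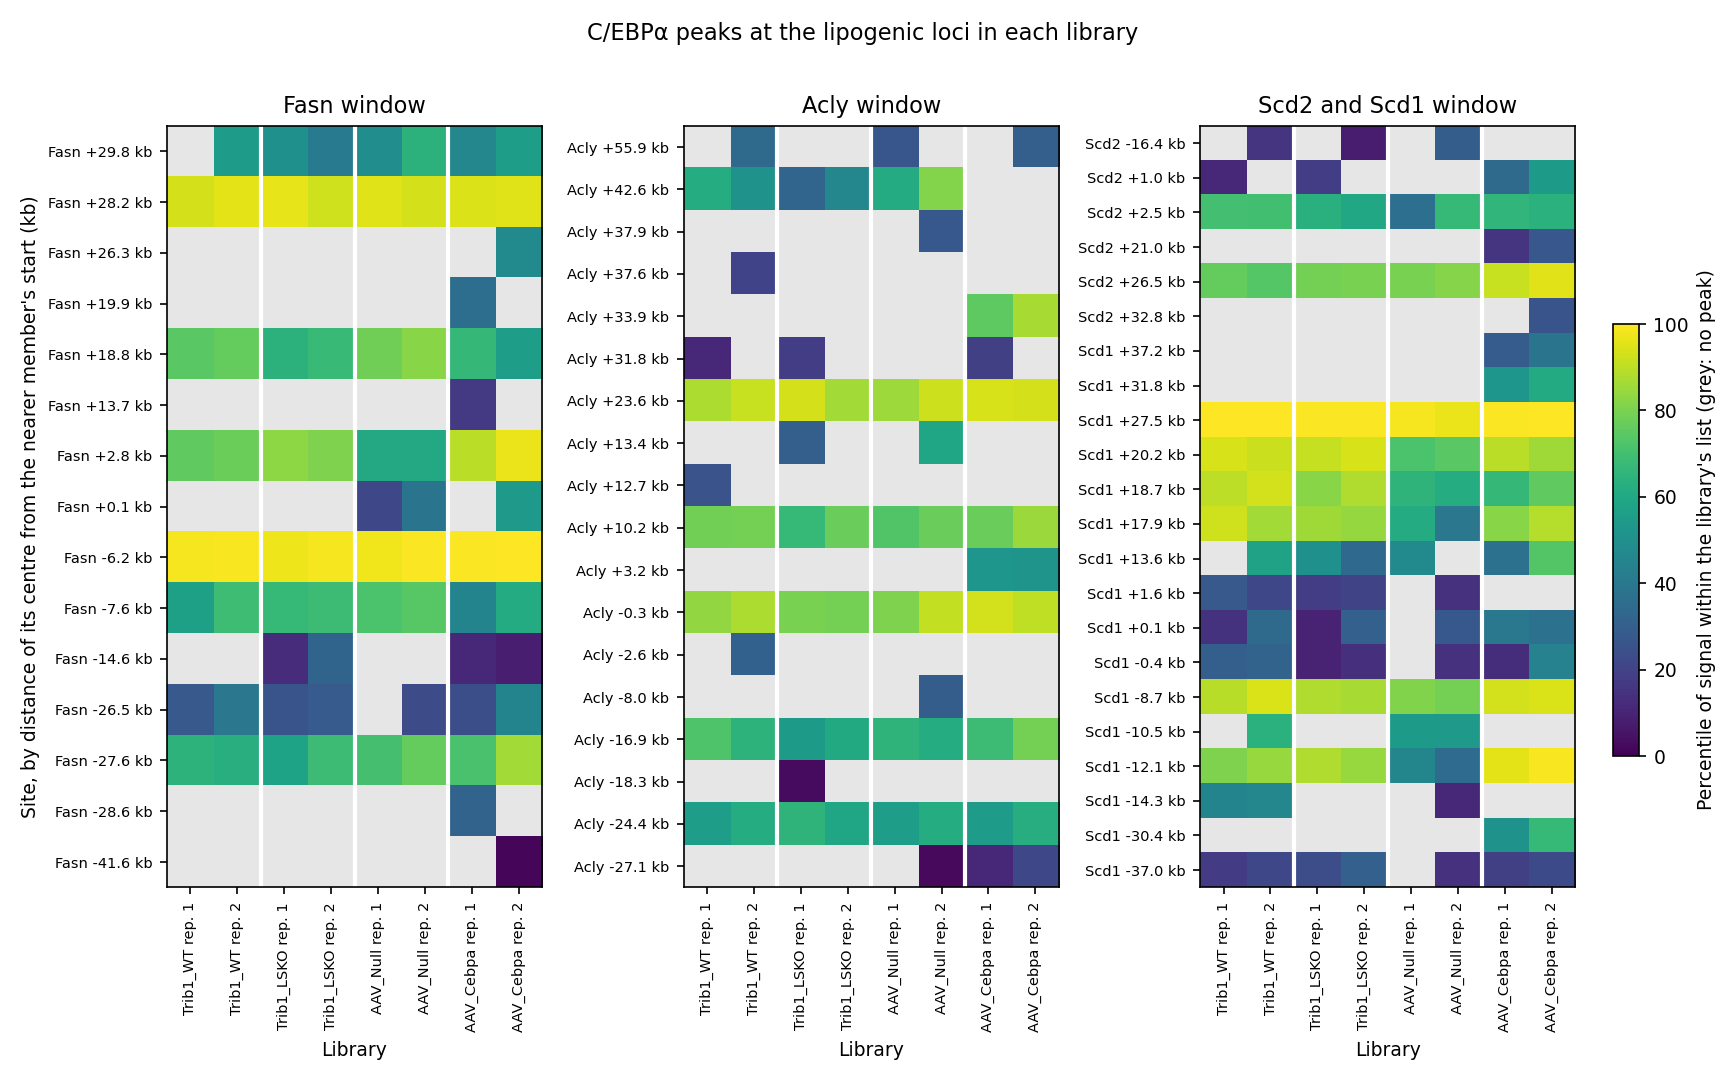
Heat map of the 55 sites (rows, ordered along the chromosome and named by distance in kb from the nearer member's start) in the 8 libraries (columns, 2 per group); colour is the percentile of the peak's signal within its library's list, and grey means no peak. The brightest rows, with mean percentiles of 98.8 and 99.2, are 6.2 kb upstream of Fasn and 27.5 kb downstream of the Scd1 start, and 6 rows are coloured in both AAV_Cebpa libraries and in no other.

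The strongest Fasn site lay 6.2 kb upstream of the start, at chr11:120692073-120692312. Its list percentiles were 98.4 and 98.9 in Trib1_WT versus 97.6 and 98.8 in Trib1_LSKO, and 97.8 and 99.5 in AAV_Null versus 99.3 and 99.7 in AAV_Cebpa. It ranked between 232 and 1186 in the 8 lists, and the groups overlapped in both experiments. A second strong site lay 28.2 kb from the start and beyond the far end of the gene, at chr11:120657686-120657910. It had percentiles of 92.7 to 96.1 across all libraries, again with no separation of the groups. Both of the strongest Fasn sites were thus near the top of every list irrespective of the vector.

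Binding within and near the Fasn gene was less uniform. The site 2.8 kb inside the gene, chr11:120682995-120683436, had list percentiles of 75.5 and 77.7 in Trib1_WT versus 83.2 and 80.7 in Trib1_LSKO, and 60.4 and 60.4 in AAV_Null versus 89.7 and 97.2 in AAV_Cebpa. Treated libraries lay above their controls in both experiments. This site was 442 bp wide because peak centres were up to 242 bp apart: AAV_Null replicate 2 and AAV_Cebpa replicate 1 had theirs on the far side from the other 6 libraries. It may therefore hold more than 1 binding position, and which of these moved was not tested. At the far end of the gene, chr11:120667044-120667266 had percentiles of 74.4 and 76.5 in Trib1_WT versus 64.2 and 67.2 in Trib1_LSKO, and 78.5 and 82.2 in AAV_Null versus 66.6 and 55.6 in AAV_Cebpa. Here the treated libraries lay below their controls in both experiments. A site at 7.6 kb upstream, chr11:120693438-120693667, beside the strongest Fasn site, had percentiles of 56.9 and 68.8 in Trib1_WT versus 67.0 and 68.6 in Trib1_LSKO, and 71.7 and 74.1 in AAV_Null versus 44.9 and 61.5 in AAV_Cebpa. The AAV_Cebpa libraries were below AAV_Null at this site, while the list percentiles of the first experiment overlapped.

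At the Fasn start itself, chr11:120685773-120686110 was called in 3 libraries only. The percentiles were 21.6 and 38.3 in AAV_Null and 53.8 in AAV_Cebpa replicate 2, and there was no peak in the other 5 lists. No peak at the Fasn start was common to all libraries. A weak site 14.6 kb upstream, chr11:120700458-120700672, was called in Trib1_LSKO at 12.8 and 32.3 and in AAV_Cebpa at 11.2 and 8.27, and in none of the 4 control libraries. It was the only site of the 55 present in all treated and absent from all control lists. A site 29.8 kb from the start, chr11:120656093-120656342, was missing from Trib1_WT replicate 1 alone and had percentiles of 40.7 to 64.3 elsewhere. The 2 remaining upstream sites with peaks in at least 7 libraries, at 26.5 and 27.6 kb, had percentiles of 23.4 to 45.0 and 58.0 to 86.0. The other 5 Fasn sites were called in 1 library each, all of them AAV_Cebpa libraries, at percentiles of 1.39 to 47.9.

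A strong C/EBPα site lay beside the Acly start in every library. This site, chr11:100390215-100390448, centred 0.3 kb upstream of the rounded gene edge, had list percentiles of 83.7 and 87.7 in Trib1_WT versus 79.9 and 79.0 in Trib1_LSKO, and 80.6 and 90.9 in AAV_Null versus 93.0 and 90.2 in AAV_Cebpa. Trib1_LSKO lay below Trib1_WT, and AAV_Null and AAV_Cebpa overlapped. The strongest Acly site was inside the gene, 23.6 kb from the start, at chr11:100366335-100366561. Its percentiles ran from 85.2 to 93.8 over the 8 libraries, and the groups overlapped in both experiments. Another intragenic site, 10.2 kb from the start, had percentiles of 67.0 to 84.9 and also occurred in all lists. Common sites upstream lay at 16.9 kb (54.3 to 78.9) and 24.4 kb (55.3 to 65.2).

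The Acly gene body also held sites called with only one of the vectors of the second experiment. The site 33.9 kb from the start, chr11:100355993-100356239, was called at percentiles of 75.3 and 87.0 in AAV_Cebpa and in no other library. A second, 3.2 kb from the start at chr11:100386675-100386894, was at 52.4 and 51.9 in AAV_Cebpa and likewise in no other library. In the opposite direction, chr11:100347277-100347529, 42.6 kb from the start, had percentiles of 62.0 and 51.6 in Trib1_WT, 32.5 and 46.4 in Trib1_LSKO, and 61.4 and 81.4 in AAV_Null, and no peak in either AAV_Cebpa list. It was lower in Trib1_LSKO than in Trib1_WT as well. These 3 sites lay within the same gene, so peak calls along Acly differed in both directions between the AAV_Cebpa and AAV_Null lists. Over all sites of that experiment, 22.1% were called in AAV_Cebpa only and 6.03% in AAV_Null only (both libraries each). A missing peak does not show that binding was absent. The other 10 sites of the Acly window were called in 1 to 3 libraries, at percentiles of 2.54 to 58.7.

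Scd2 had few strong sites of its own. Inside the gene, 2.5 kb from the start, chr19:44370363-44370576 had list percentiles of 70.0 and 69.7 in Trib1_WT versus 63.3 and 60.0 in Trib1_LSKO, and 36.4 and 66.9 in AAV_Null versus 65.9 and 63.7 in AAV_Cebpa. The AAV_Null replicates differed widely here and enclosed the AAV_Cebpa values. At 1.0 kb inside the gene, chr19:44368946-44369152 was called in AAV_Cebpa at 34.6 and 54.5, in neither AAV_Null library, and in replicate 1 of Trib1_WT and of Trib1_LSKO at 11.0 and 18.2. Beyond the far end of Scd2, on the side of Scd4, chr19:44394380-44394611 had percentiles of 76.4 and 73.5 in Trib1_WT versus 78.9 and 79.9 in Trib1_LSKO, and 79.7 and 82.0 in AAV_Null versus 91.5 and 95.7 in AAV_Cebpa. Treated libraries exceeded their controls in both experiments at this site, 26.5 kb from the Scd2 start. A weak site near it, at 21.0 kb (chr19:44388843-44389079), was called only in AAV_Cebpa, at 15.0 and 27.0. A site 16.4 kb upstream of Scd2 was called in replicate 2 of Trib1_WT, Trib1_LSKO and AAV_Null, at 15.1, 7.66 and 29.4, and 1 further site in AAV_Cebpa replicate 2 alone, at 25.9.

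Scd1 was bound mainly at a distance. Its strongest site, chr19:44454623-44454847, lay 27.5 kb from the start, beyond the far end of the gene. It had list percentiles of 99.9 and 99.9 in Trib1_WT versus 99.5 and 99.5 in Trib1_LSKO, and 98.6 and 97.0 in AAV_Null versus 99.5 and 99.6 in AAV_Cebpa. This site ranked 52 and 56 in the Trib1_WT lists, 256 and 284 in Trib1_LSKO, but 618 and 1453 in AAV_Null versus 303 and 287 in AAV_Cebpa. It was the strongest of the 55 by mean percentile. At the start of Scd1 binding was weak: chr19:44481912-44482204 had percentiles of 9.48 to 40.1 in 7 libraries, and chr19:44482490-44482724 had 9.48 to 44.3 in the same 7. Another, 1.6 kb inside the gene at chr19:44480457-44480706, had 14.3 to 28.1 in 5 libraries. AAV_Null replicate 1, the shallowest library, had no peak at any of these 3, and both AAV_Cebpa libraries lacked the last.

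A group of 3 sites lay 17.9 to 20.2 kb from the Scd1 start, past the far end of the gene. The outermost, chr19:44461858-44462094, had percentiles of 94.1 and 91.8 in Trib1_WT versus 91.1 and 94.1 in Trib1_LSKO, and 71.7 and 74.6 in AAV_Null versus 89.7 and 85.8 in AAV_Cebpa. The middle site, chr19:44463367-44463659, had 90.0 and 93.1, 82.3 and 88.0, 65.0 and 61.9, and 66.6 and 75.5 in the same order of groups. The innermost, chr19:44464131-44464373, had 92.8 and 86.2, 85.7 and 84.1, 61.4 and 39.8, and 82.3 and 89.0. In the lists, the AAV_Null values were the lowest of the groups at each of the 3, but lists of different lengths show no change by themselves. Ranks among sites shared by the libraries of the second experiment, given with that comparison, separated the groups at the outermost and innermost sites and overlapped at the middle one. A site beyond the gene end, 13.6 kb from the start, was called in 6 libraries at 34.1 to 73.2.

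Upstream of Scd1, the site at 12.1 kb, chr19:44494139-44494410, showed the widest range of the common sites. Its list percentiles were 80.8 and 84.6 in Trib1_WT versus 88.0 and 84.5 in Trib1_LSKO, and 45.9 and 34.9 in AAV_Null versus 96.1 and 99.0 in AAV_Cebpa. The AAV_Null peaks lay in the lower part of their lists and the AAV_Cebpa peaks near the top of theirs, and the ranks among shared sites are given with the second comparison. The site at 8.7 kb, chr19:44490728-44490980, had 89.3 and 94.4 in Trib1_WT versus 88.0 and 86.9 in Trib1_LSKO, and 80.9 and 79.3 in AAV_Null versus 93.0 and 94.5 in AAV_Cebpa. Between them, at 10.5 kb, chr19:44492598-44492813 was called in AAV_Null at 54.5 and 54.0 and in Trib1_WT replicate 2 at 63.8, and in no AAV_Cebpa or Trib1_LSKO library. The site at 14.3 kb, chr19:44496414-44496661, was called in Trib1_WT at 45.2 and 46.4 and in AAV_Null replicate 2 at 11.7, and in no treated library of either experiment. Further out, chr19:44512539-44512756 at 30.4 kb was called only in AAV_Cebpa, at 51.4 and 66.9. Downstream, chr19:44450269-44450483 (52.4 and 61.0) and chr19:44444849-44445069 (28.9 and 38.5) were also called in AAV_Cebpa alone. A weak site at 37.0 kb upstream, chr19:44519061-44519289, had 14.3 to 30.5 in 7 libraries.

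**Figure D2:**
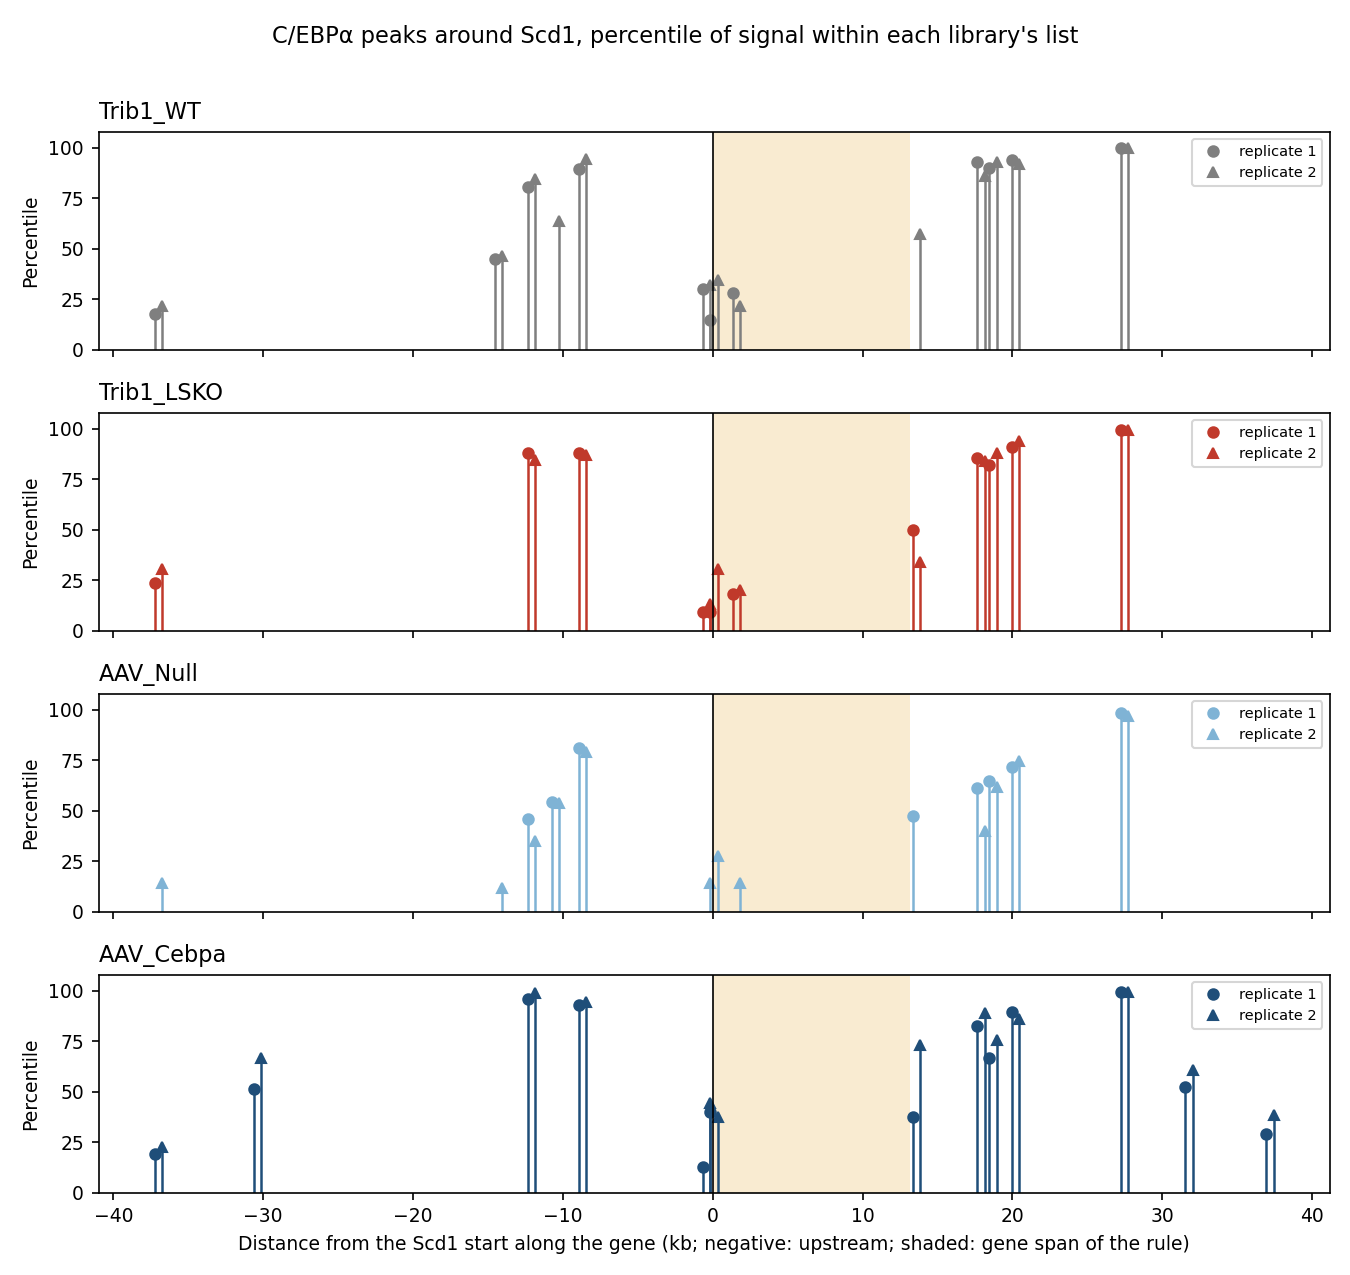
List percentile (vertical axis, 100 the strongest peak of the list) of each peak around Scd1 against its distance in kb from the gene start, with 1 panel per group, circles for replicate 1 and triangles for replicate 2 (drawn slightly apart), and the gene span shaded. The AAV_Null stems between 17.9 and 20.2 kb (39.8 to 74.6) and at 12.1 kb upstream (34.9 and 45.9) are shorter, site by site, than those of the other groups, and stems at 30.4 kb upstream and at 31.8 and 37.2 kb downstream occur in AAV_Cebpa only.

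The first comparison asked whether targeting Trib1 changed where C/EBPα was bound at these enzymes. A site counts as gained if the pair of treated libraries had a peak there and the pair of controls had none, and as lost in the reverse case. Of the 39 sites called in at least 1 library of this experiment, 1 was gained (2.56%), the weak site 14.6 kb upstream of Fasn, and 1 was lost (2.56%), the site 14.3 kb upstream of Scd1. Another 25 were called in all 4 libraries, and 12 in other combinations. Over all 75289 sites of the experiment, 4.74% were gained and 4.86% lost, so the shares in the windows say nothing particular about these loci. Neither site was called as gained or lost among the strongest 50% of each list, where the site 42.6 kb inside Acly was lost instead. Gained sites numbered 3 without Trib1_LSKO replicate 2 or without Trib1_WT replicate 2, and lost sites 5 without Trib1_WT replicate 1 and 2 without Trib1_WT replicate 2. Single sites were not tested. With 6 ways to assign the libraries, an exact two-sided permutation test cannot give a p below 0.3333. The 3 windows together held 30.5 ± 2.12 peaks in Trib1_LSKO against 31.0 ± 2.83 in Trib1_WT (SD, n = 2 each; exact permutation p = 1.0), a difference of -0.5 peaks that was -2.0 without Trib1_LSKO replicate 1, -2.5 without Trib1_WT replicate 1, 1.0 without Trib1_LSKO replicate 2 and 1.5 without Trib1_WT replicate 2. In the Fasn window each Trib1_LSKO library had 9 peaks, against 7 and 8 in Trib1_WT (exact permutation p = 0.3333). In the Acly window the counts were 9 and 6 against 8 and 9, and in the Scd window 14 and 14 against 14 and 16.

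To compare the strength of sites between groups, each site was ranked by signal among the sites that all 4 libraries of an experiment share, so that the ranked set was the same in each library. This shared rank is a percentile, with 100 the strongest. Of the 25 sites in the windows that all 4 libraries of the first experiment share, 5 (20.0%) ranked higher in both Trib1_LSKO libraries than in both Trib1_WT libraries. Another 11 (44.0%) ranked lower, and 9 overlapped. Over all 34866 shared sites, 22.8% ranked higher and 32.0% lower. The number ranked higher was 8 without Trib1_LSKO replicate 2. The median difference, Trib1_LSKO minus Trib1_WT, was -1.96 percentile points in the windows and -1.74 over all shared sites.

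The Acly window had 4 of its 6 shared sites lower in Trib1_LSKO and none higher, against 1 lower and 2 higher of 7 at Fasn and 6 lower and 3 higher of 12 at the Scd genes. Whether the windows differ was not tested. At the Acly start the shared rank was 70.4 ± 2.21 in Trib1_LSKO against 78.1 ± 3.98 in Trib1_WT (SD over 2 libraries, as for all ranks here). At 42.6 kb inside Acly it was 23.0 ± 7.24 against 39.1 ± 8.78, a difference of -16.1 that was -10.2 without Trib1_LSKO replicate 1 and -10.5 without Trib1_WT replicate 1. The site 16.9 kb upstream of Acly had 42.1 ± 3.37 against 53.7 ± 7.89, and the site at 10.2 kb had 60.5 ± 8.11 against 68.0 ± 0.141. Single libraries carried much of these differences. At 10.2 kb the difference of -7.48 was -1.53 without Trib1_LSKO replicate 1 and -12.6 without Trib1_LSKO replicate 2. At 16.9 kb upstream, -11.6 became -6.17 without Trib1_WT replicate 1, and at the Acly start -7.78 became -4.82 without Trib1_WT replicate 2. At Fasn, the far end of the gene had 52.0 ± 0.748 against 62.9 ± 1.52, and the site 2.8 kb inside had 73.8 ± 3.61 against 64.5 ± 1.80. The site 7.6 kb upstream had 54.6 ± 0.323 against 46.2 ± 10.0, and the difference of 8.38 was 1.06 without Trib1_WT replicate 1 and 14.7 without Trib1_WT replicate 2.

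At the Scd genes the shared rank of the strongest site was 99.2 ± 0.0537 in Trib1_LSKO and 99.8 ± 0.0101 in Trib1_WT. The weak site 0.4 kb upstream of Scd1 had 3.18 ± 0.284 against 13.9 ± 1.17. Lower ranks were also present at 18.7 kb (78.6 ± 4.79 against 87.1 ± 3.10), at 8.7 kb upstream (81.7 ± 1.87 against 87.5 ± 5.19), at 1.6 kb inside Scd1 (7.13 ± 0.464 against 9.53 ± 2.62) and at 2.5 kb inside Scd2 (46.9 ± 4.93 against 55.1 ± 0.753). Higher ranks were present 26.5 kb from the Scd2 start (70.3 ± 0.362 against 62.1 ± 3.48), 12.1 kb upstream of Scd1 (79.9 ± 4.45 against 73.6 ± 3.59) and 37.0 kb upstream of Scd1 (12.2 ± 1.92 against 6.47 ± 1.70). Several of these also rested on 1 library. Without Trib1_LSKO replicate 1, the difference was -4.62 in place of -8.51 at 18.7 kb, 2.85 in place of 6.25 at 12.1 kb upstream and 9.55 in place of 5.75 at 37.0 kb upstream. Without Trib1_LSKO replicate 2 it was -4.52 in place of -8.28 inside Scd2. Without Trib1_WT replicate 1 it was 3.48 at 12.1 kb upstream, -8.98 in place of -5.83 at 8.7 kb upstream and -1.29 in place of -2.40 at 1.6 kb. Without Trib1_WT replicate 2 it was -2.09 at 8.7 kb upstream, -5.70 at 1.6 kb, and 5.36 in place of 8.17 at 26.5 kb from the Scd2 start.

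**Figure D3:**
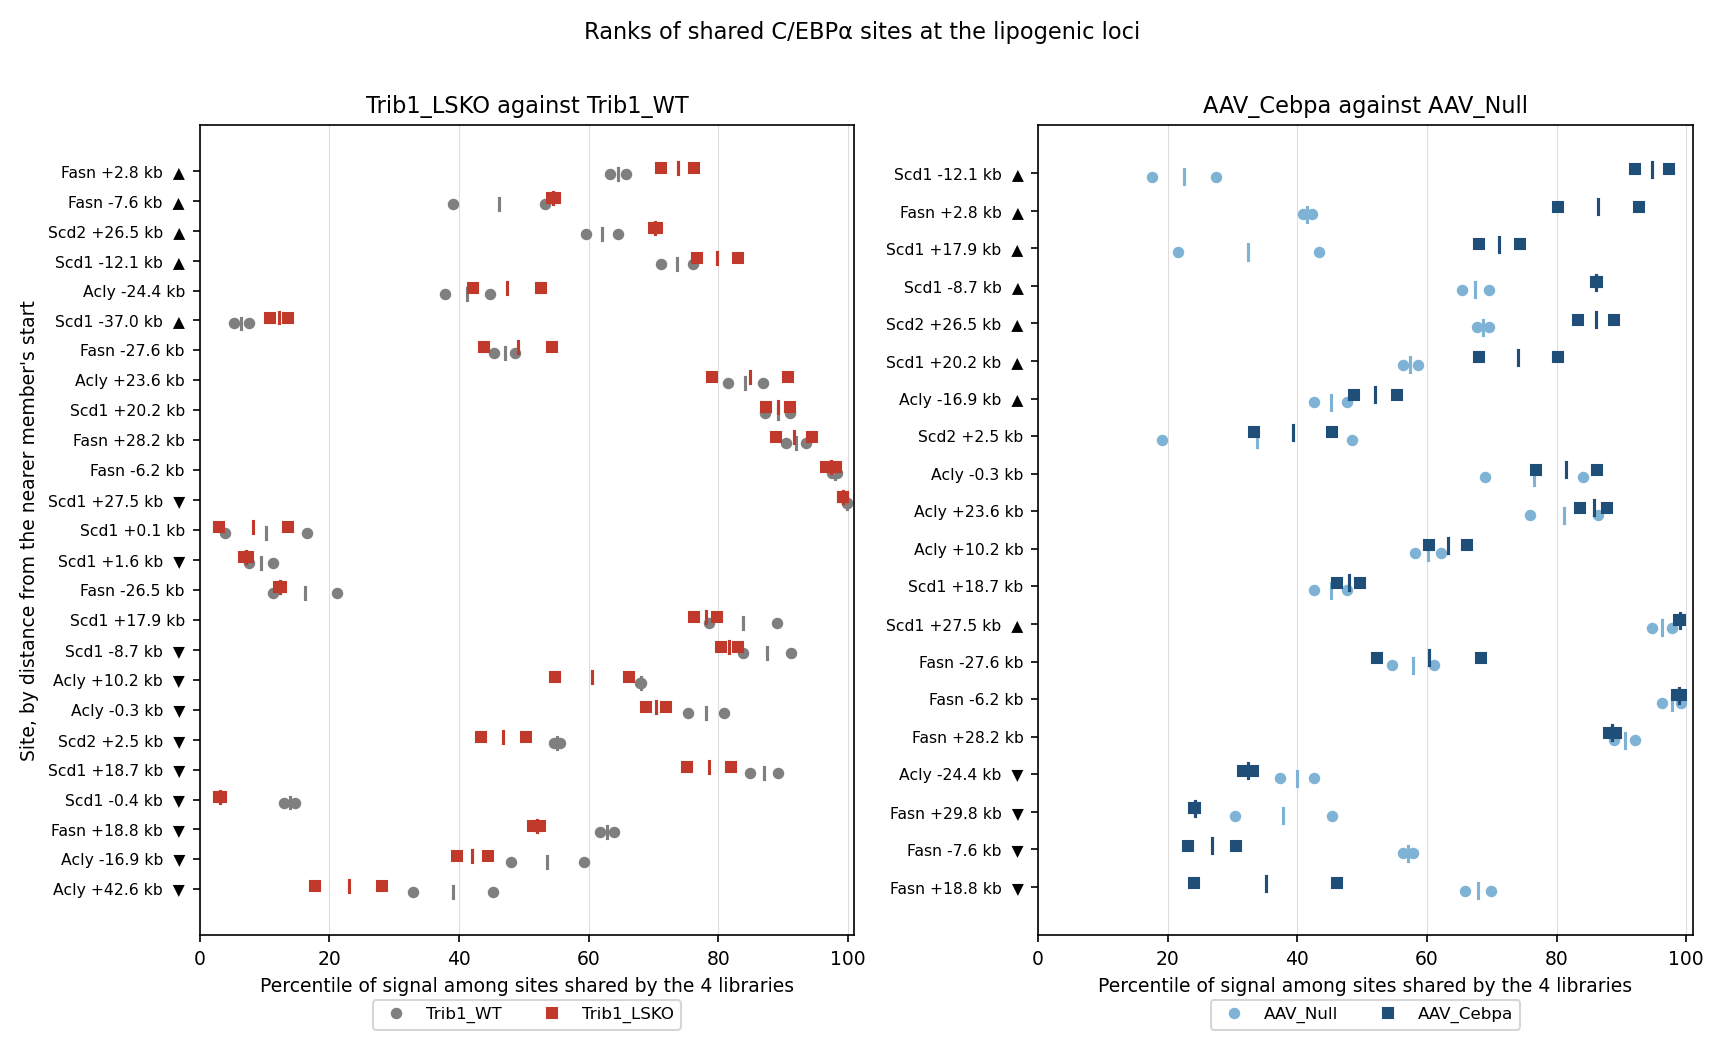
Percentile of signal (horizontal axis) of each site in the windows among the sites shared by the 4 libraries of an experiment, for Trib1_LSKO against Trib1_WT (left, 25 sites) and AAV_Cebpa against AAV_Null (right, 20 sites); points are libraries, short bars are group means, and triangles beside the names mark groups that do not overlap, with the treated group higher or lower. In the right panel the site 12.1 kb upstream of Scd1 is farthest apart, with means of 94.7 and 22.5.

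The AAV_Cebpa experiment addressed how a C/EBPα vector altered C/EBPα binding at these enzymes. Of the 51 sites called in at least 1 library of this experiment, 8 were gained in AAV_Cebpa (15.7%) and 2 were lost (3.92%). Over all 100278 sites, 22.1% were gained and 6.03% lost, so neither share was above the background. The gained sites were 1 at Fasn, 2 in Acly, 2 nearest to Scd2 and 3 nearest to Scd1. The lost sites were the one 42.6 kb inside Acly and the one 10.5 kb upstream of Scd1. With lists shortened to equal length, 5 sites were gained. The 3 that were no longer gained were the Fasn site 14.6 kb upstream, the site 21.0 kb from the Scd2 start and the site 37.2 kb from the Scd1 start, which had percentiles of 8.27 to 38.5 in the AAV_Cebpa lists. Gained sites numbered 13 without AAV_Null replicate 2, and lost sites 8 and lower-ranked sites 7 without AAV_Null replicate 1. The windows held 38.5 ± 0.707 peaks in AAV_Cebpa and 29.5 ± 6.36 in AAV_Null (SD, n = 2 each; exact permutation p = 0.3333). The difference of 9.0 peaks was 4.5 without AAV_Null replicate 1 and 1.5 with lists of equal length. Scaled to lists of 1000000 peaks it was -54.7. By window, AAV_Cebpa libraries had 12 and 12 peaks at Fasn against 8 and 9, 9 and 9 at Acly against 7 and 10, and 17 and 18 at the Scd genes against 10 and 15.

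**Figure D4:**
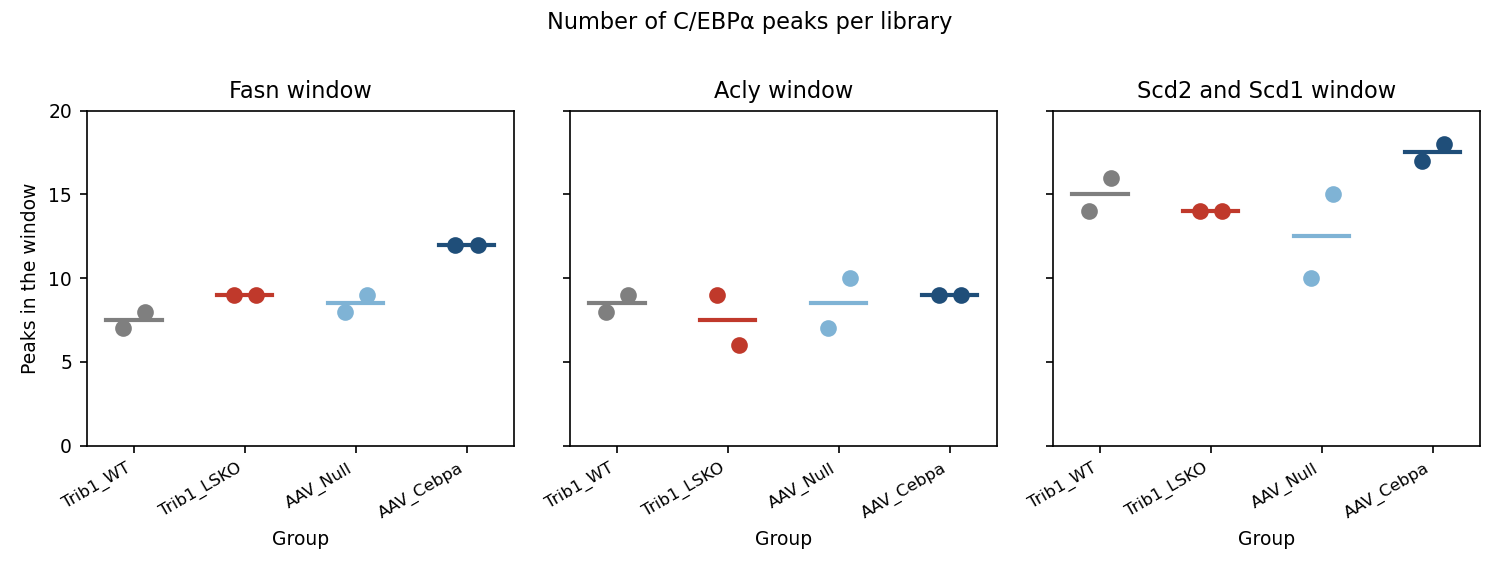
Number of peaks in each window (vertical axis) by group, with points for libraries and bars for the mean of 2. Fasn and Scd counts are highest in AAV_Cebpa (12 and 12, and 17 and 18), whose lists are also the longest, and Acly counts overlap among all groups.

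Among the 20 sites in the windows shared by all 4 libraries of this experiment, 8 (40.0%) ranked higher in AAV_Cebpa and 4 (20.0%) lower, against 30.6% and 40.3% of all 27702 shared sites. The median difference, AAV_Cebpa minus AAV_Null, was 3.83 percentile points in the windows and -2.08 over all shared sites. Of the 8 shared sites of the Scd window, 6 ranked higher and none lower. At Fasn 1 of 7 ranked higher and 3 lower, and at Acly 1 of 5 ranked higher and 1 lower. Whether the windows differ was not tested.

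The largest difference was 12.1 kb upstream of Scd1, where the shared rank was 94.7 ± 3.69 in AAV_Cebpa and 22.5 ± 6.97 in AAV_Null, 72.1 points apart. This site and the one 17.9 kb from the Scd1 start were not shared by the strongest 50% of all 4 lists. Neither were the ones 7.6 kb upstream of Fasn and 29.8 kb from the Fasn start, so these rank differences have no value there. At 12.1 kb upstream of Scd1 both AAV_Null peaks (list percentiles 45.9 and 34.9) fell below that cut and both AAV_Cebpa peaks stayed above it. That site therefore counted as gained at this setting. The next largest differences were 2.8 kb inside Fasn (86.4 ± 8.82 against 41.5 ± 0.920) and 17.9 kb from the Scd1 start (71.2 ± 4.46 against 32.4 ± 15.4). With sites joined in windows of 100 bp the Fasn site was divided and was not shared by all 4 libraries, which left 7 sites ranked higher. Smaller differences were present 8.7 kb upstream of Scd1 (86.2 ± 0.0153 against 67.5 ± 2.91), 26.5 kb from the Scd2 start (86.1 ± 3.93 against 68.6 ± 1.27), 20.2 kb from the Scd1 start (74.1 ± 8.61 against 57.4 ± 1.56) and 16.9 kb upstream of Acly (52.0 ± 4.76 against 45.1 ± 3.52). The strongest Scd1 site had 99.0 ± 0.0511 against 96.2 ± 2.11. Without AAV_Null replicate 2 the difference was 24.6 in place of 38.8 at 17.9 kb, 2.10 in place of 6.91 at 16.9 kb upstream of Acly and 1.09 in place of 2.71 at the strongest Scd1 site. Without AAV_Cebpa replicate 1 it was 10.4 in place of 16.6 at 20.2 kb and 11.4 at 16.9 kb upstream of Acly, where it was 3.89 without AAV_Cebpa replicate 2.

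Of the 4 sites that ranked lower in AAV_Cebpa, 3 were in the Fasn window. The far end of the gene had a shared rank of 35.1 ± 15.6 against 67.9 ± 2.88, and the site 7.6 kb upstream had 26.9 ± 5.21 against 57.1 ± 1.06. The site 29.8 kb from the Fasn start had 24.2 ± 0.120 against 37.9 ± 10.6. At Acly, the site 24.4 kb upstream had 32.4 ± 1.11 against 40.0 ± 3.78. Without AAV_Cebpa replicate 2 the difference at the far end of Fasn was -21.2 in place of -32.8. Without AAV_Null replicate 1 it was -22.8 in place of -13.7 at 29.8 kb and -12.0 in place of -7.54 at 24.4 kb upstream of Acly. The strongest Fasn site (98.8 ± 0.406 against 97.7 ± 2.00) and the Acly start (81.5 ± 6.57 against 76.6 ± 10.7) overlapped between the groups, as did the site 18.7 kb from the Scd1 start.

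Both experiments were set side by side at the 19 sites common to all 8 libraries, a reading chosen after the values were seen. The experiments have separate control libraries. Ranks were higher in the treated libraries of both experiments at 3 of the 19 (15.8%, against 14.3% of all 24318 such sites). These were 2.8 kb inside Fasn, 26.5 kb from the Scd2 start and 12.1 kb upstream of Scd1. The Fasn site joins peak centres up to 242 bp apart. With sites joined in windows of 100 bp it was not shared by the 4 libraries of the second experiment. They were lower in both at 1 of the 19 (5.26%, against 18.9%), the far end of Fasn. Differences at the 3 sites were 9.23, 8.17 and 6.25 points in the first experiment and 44.9, 17.4 and 72.1 in the second. In the first experiment the value of 8.17 was 5.36 without Trib1_WT replicate 2, and that of 6.25 was 2.85 without Trib1_LSKO replicate 1 and 3.48 without Trib1_WT replicate 1.

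The AAV_Null libraries ranked lowest at several sites of the Scd1 flanks. Ranked among the sites common to all 8 libraries, 6 of the 19 (31.6%) were lower in both AAV_Null libraries than in each of the other 6 libraries, against 12.0% of all such sites. They comprised 5 of the Scd1 sites and the site 2.8 kb inside Fasn. This count had not been planned. At 12.1 kb upstream of Scd1 these ranks were 61.3 and 67.7 in Trib1_WT versus 76.8 and 68.7 in Trib1_LSKO, and 21.9 and 13.4 in AAV_Null versus 91.0 and 96.9 in AAV_Cebpa. At 20.2 kb from the start they were 87.4 and 82.2, 82.6 and 87.6, 51.0 and 53.5, and 77.6 and 64.4 in the same order. Both AAV_Cebpa libraries were thus also below every Trib1_WT and Trib1_LSKO library there. At 18.7 kb, which is not among the 6, the ranks were 79.0 and 84.9, 66.6 and 75.4, 41.7 and 36.7, and 41.0 and 44.8. Here AAV_Cebpa overlapped AAV_Null, and both were below the first experiment. The floxed and wild-type control mice differ in genotype and in vector dose (1.5e11 against 1e12 gc), and belong to separate experiments. Their libraries also differ in relative depth (1.14 and 1.93 in Trib1_WT, 1.00 and 1.17 in AAV_Null). These differences cannot be told apart here. The second comparison at Scd1 is therefore measured against controls that were lower than the other control group.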

How the data were processed

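C/EBPα ChIP-seq of mouse liver was available as 8 peak lists, 2 for each of 4 groups. The authors deposited, for each library, peaks of 200 bp with 1 signal value each, and the submitters' processing notes name Bowtie and HOMER, with positions on mm9. Tool versions, input libraries, the calling threshold, duplicate handling and the scaling of the signal were not given in the sources used here. The AAV_Cebpa lists were the longest, and a longer list can raise the number of gained sites.

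Windows of 200 bp around peak midpoints that overlapped by at least 1 bp in any of the 8 libraries were joined into sites. A site belongs to a window of the rule if its midpoint does. Percentiles use mean ranks for ties. Relative depth is the inverse of the step of which signal values are whole multiples, within 0.051. Peak numbers were compared by an exact two-sided permutation test. Gained and lost calls and ranks among shared sites were counted and set beside all sites.

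The text names, for each gene, the site nearest its start, the strongest site, every gained or lost site and every shared site whose groups do not overlap, and gives others by range. The members and lists were chosen with earlier results of these data known. Counts at other lipogenic genes had been planned and need mm9 genes, which were not used here. Alternatives were sites joined in 100 or 400 bp, the strongest 50% of each list, lists of equal length, peaks scaled to lists of 1000000, and leaving out each library. Computations in Python 3.11.15 with numpy 2.4.6 and pandas 2.3.3 were tested on simulated lists.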

Additional observations from a re-analysis of the deposited data

How the results depend on the processing

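Of 80 recomputed counts and differences in peak number, 64 kept the direction or lay within 1.5 times the value given, 12 moved further and 4 changed sign. With the strongest 50% of each list, 0 sites were gained in Trib1_LSKO and 1 was lost. The lost site was the one 42.6 kb inside Acly, in place of the one 14.3 kb upstream of Scd1. In AAV_Cebpa, 5 sites were gained and 1 ranked lower at this setting, and 5 were gained with lists of equal length. The site 12.1 kb upstream of Scd1 was among those gained with the strongest 50%, because both AAV_Null peaks fell outside it. Scaled to lists of 1000000 peaks, the difference in peak number was 19.1 for Trib1_LSKO and -54.7 for AAV_Cebpa, opposite in sign to the differences in number. Leaving out each library in turn gave, for Trib1_LSKO, 1 to 3 gained, 1 to 5 lost, 6 to 8 higher-ranked and 12 to 16 lower-ranked sites, and a difference of -2.5 to 1.5 peaks. For AAV_Cebpa it gave 9 to 13 gained, 2 to 8 lost, 10 to 12 higher-ranked and 5 to 7 lower-ranked sites, and 4.5 to 13.5 peaks. Part of this follows from the looser definition with 1 library in a group. For sites ranked apart, 168 of 214 recomputed rank differences moved by at most 1 SD between replicates, 46 moved further and 0 changed sign. These sites were picked because their groups did not overlap. Leaving out a library could therefore hardly change a sign, and the absence of sign changes there shows little. Pairing libraries by replicate number (a replicate block) was added after the data were seen. Pairing cannot change the mean differences in peak number, which stay at -0.5 and 9.0 and are included in the 64 above. It changes only the test (exact sign-flip p = 1.0 and 0.5, with 0.5 the smallest that 2 pairs can give). The labels do not say that a number marks a shared animal or day. Under the strongest 50%, 4 named rank differences of each experiment had no value because a peak fell outside that part of its list. In the second experiment these included the sites 12.1 kb upstream and 17.9 kb from the start of Scd1. Both sites have peaks in all 8 full lists, and it was AAV_Null peaks that fell outside. Others moved in that smaller set, such as 2.8 kb inside Fasn in AAV_Cebpa (69.2 in place of 44.9) and 24.4 kb upstream of Acly (-1.91 in place of -7.54). The part of depth in missing weak peaks was not tested.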
